A study of Mus musculus with 6 samples.

Results

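The coagulation and fibrinolysis genes described here are 9 genes of the monocyte lineage, chosen by name: tissue factor (F3), coagulation factors VII (F7), X (F10) and XIII A chain (F13a1), the inhibitor Tfpi, thrombomodulin (Thbd), urokinase (Plau), its receptor (Plaur) and the urokinase inhibitor Serpinb2. All 9 were among the 18341 genes of the deposited table, and all 9 reached the mean of 1 CPM (a read count scaled to the library's read total) required for testing, as did 12824 genes in all. The table came from RNA sequencing of monocytes sorted from subcutaneous tumours of C57BL/6 mice 13 days after injection of either BAFF cells or control cells, with 3 libraries a group. BAFF is the B cell activating factor, and the samples' status label reads over expression for 1 group and control for the other. The source label of every library is B16.F10, a pigmented mouse melanoma line, so that line is shared by both groups. The vector, the cell clone, the sort gate, the animals' age and the number of mice behind a library were not stated, so p-values measure the spread between these libraries, which may be technical.

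Clotting starts when tissue factor, a membrane receptor, meets factor VII. The pair activates factor X, which makes thrombin. Thrombin cuts fibrinogen into fibrin, and factor XIII cross-links the fibrin strands. TFPI blocks the starting complex, and thrombomodulin turns thrombin into an anticoagulant enzyme. Urokinase, held at the cell surface by its receptor PLAUR, turns plasminogen into plasmin, which dissolves fibrin, and SERPINB2 inhibits urokinase. Monocytes and macrophages are a known source of tissue factor, of factors VII, X and XIII A, and of the urokinase receptor, and they transcribe these genes away from the liver, where most plasma clotting factors are made.

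To show what lies in front of genes that moved differently, the 250 bases before the RefSeq start (GRCm38.p6) are printed 5′ to 3′ on the gene's strand for the neighbouring pair F10 and F7 and for F3, Plaur and Serpinb2, 3 genes with an AP-1 match. The RefSeq promoter table held 10 start sites for 7 of the 9 genes, Thbd and Plau aside. The motifs were chosen after the expression values were seen. Capitals mark matches, on either strand, to AP-1 (TGANTCA), Sp1 (GGGCGG), PU.1 (GAGGAA), the hypoxia response element (ACGTG) or the TATA box (TATAAA).
F10, chr8:13037058-13037307 (+): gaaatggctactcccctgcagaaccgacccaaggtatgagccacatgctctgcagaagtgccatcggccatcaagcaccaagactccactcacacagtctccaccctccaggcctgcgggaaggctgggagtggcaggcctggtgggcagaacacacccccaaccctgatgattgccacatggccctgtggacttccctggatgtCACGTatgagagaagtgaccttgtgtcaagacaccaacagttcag
F7, chr8:13025784-13026033 (+): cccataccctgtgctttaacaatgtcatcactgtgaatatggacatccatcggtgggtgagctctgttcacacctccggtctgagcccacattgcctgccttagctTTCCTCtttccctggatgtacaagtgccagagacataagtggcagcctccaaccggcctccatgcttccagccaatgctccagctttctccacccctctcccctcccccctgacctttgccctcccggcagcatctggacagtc
F3, chr3:121723287-121723536 (+): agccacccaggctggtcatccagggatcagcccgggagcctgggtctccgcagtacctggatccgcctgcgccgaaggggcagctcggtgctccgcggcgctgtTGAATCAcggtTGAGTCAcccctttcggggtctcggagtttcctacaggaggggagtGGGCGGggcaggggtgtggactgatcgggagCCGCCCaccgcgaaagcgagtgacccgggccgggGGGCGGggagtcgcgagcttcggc
Plaur, chr7:24462233-24462482 (+): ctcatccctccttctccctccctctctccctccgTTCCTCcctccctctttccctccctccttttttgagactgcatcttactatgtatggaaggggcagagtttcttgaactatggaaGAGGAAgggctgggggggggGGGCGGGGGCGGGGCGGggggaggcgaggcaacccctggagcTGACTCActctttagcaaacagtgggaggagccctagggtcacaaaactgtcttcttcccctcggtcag
Serpinb2, chr1:107511173-107511422 (+): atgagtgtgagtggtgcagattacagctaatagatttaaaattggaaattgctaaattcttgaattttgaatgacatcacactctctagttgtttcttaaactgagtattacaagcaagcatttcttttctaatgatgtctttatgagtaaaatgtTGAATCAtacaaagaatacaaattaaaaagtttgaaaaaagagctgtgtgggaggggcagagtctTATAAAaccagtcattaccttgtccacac

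AP-1 matches lay 146 to 140 and 135 to 129 bases before the F3 start, 69 to 63 bases before that of Plaur and 94 to 88 bases before that of Serpinb2. The other Serpinb2 start in the table holds the same AP-1 match in its window. F10, F7, F13a1 and Tfpi had 0 AP-1 matches in these windows. Of all 32851 promoter windows of this length, 6.75% held an AP-1 match. Sp1 matched at 3 places each in F3 and Plaur, of which 2 in Plaur share 1 base, and 32.7% of all windows held one. Both Tfpi windows, not printed here, held an Sp1 match as well, 41 to 36 and 159 to 154 bases before their starts. PU.1, a myeloid transcription factor, matched in F7 144 to 139 bases before the start and at 2 places in Plaur (23.3% of all windows), as well as in 1 window of F13a1 and 1 of Tfpi. The hypoxia response element matched in F10 45 to 41 bases before the start (16.6% of all windows). Serpinb2 alone of the 5 shown held a TATA box match, 29 to 24 bases before its start (12.4% of all windows). Of the windows not printed, 1 of Tfpi held one, 127 to 122 bases before its start, as did the other Serpinb2 window. A strict NF-kB pattern, searched on both strands, matched in 0 of the 10 windows of these genes and in 0.356% of all windows. Other forms of the NF-kB motif were not searched, so this result cannot decide whether the windows, that of F3 included, hold one. A match is a description of letters and not a binding site.

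Libraries differed in depth and scale. From the step between low values, 1 CPM stood for 4.72 to 27.6 reads, and the listed genes held 61.1% to 66.1% of the read total in BAFF tumour libraries and 65.6%, 50.2% and 39.8% in control libraries 1, 2 and 3. The ribosomal RNA gene CT010467.1 took 27017 and 43052 CPM in control libraries 2 and 3 and at most 5880 CPM in the others. Each comparison is therefore given on the deposited scale and after median-of-ratios size factors (RLE). The median of all tested genes was 0.23 on the log2 scale on the deposited scale and 0.01 after RLE. Fold changes are BAFF tumour over control tumour on the log2(CPM + 1) scale, which understates the change of low genes, with standard errors (SE) and Benjamini-Hochberg adjusted p-values from limma-trend over all tested genes. On the deposited scale the prior degrees of freedom were infinite, so the SE is shared by genes of like level and is not the gene's own spread. In bulk RNA, fewer cells of a type and less RNA per cell cannot be told apart.

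Monocyte and macrophage identity genes were present in every library, with Lyz2, a macrophage lysozyme, the most abundant at 2693 to 5978 CPM. Of that list 0 of 10 passed on the deposited scale and 4 passed as higher after RLE (Cd14 among them), and the summed level after RLE was 8472 to 9473 CPM in BAFF tumour and 6069 to 7845 CPM in control libraries. Ly6C-high monocyte markers passed as higher for 4 of 9 on the deposited scale and 8 of 9 after RLE, with Chil3 and Hp among them, Ccr2 the most abundant, and summed levels after RLE of 2817 to 2942 and 1675 to 1999 CPM. Resident-type macrophage markers passed as lower for 4 of 8 and 7 of 8 (Lyve1 and Fcna among them, Mrc1 the most abundant; sums 1221 to 1321 and 2093 to 2717 CPM). Melanoma cell markers passed as lower for 10 of 11 on both scales (Dct, the most abundant, and Pmel among them; 82.4 to 169.9 and 509 to 656 CPM). Neutrophil markers passed as higher for 5 of 8 and 3 of 8 (Il1r2 on both scales, Lcn2 on the deposited scale, and the most abundant, Csf3r, after RLE; 199.5 to 300.1 and 113 to 174 CPM).

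Markers of other cells that make clotting genes were at mixed levels. Of 10 platelet and megakaryocyte markers 4 were found, Itga2b and Tubb1 had means under 1 CPM, and 0 of the 2 tested passed on either scale, Pf4, the most abundant, at 86.9 ± 32.1 and 117 ± 53.7 CPM and Ppbp at 8.87 ± 3.89 and 12.8 ± 9.80 CPM in BAFF tumour and control libraries (SD, n = 3). Of 9 endothelial markers found, 7 had means under 1 CPM. Tek was at 0 in BAFF tumour library 1 and in control libraries 2 and 3, and Kdr, the most abundant, was at 11.9 ± 1.90 and 6.08 ± 1.52 CPM (SD, n = 3) and passed as higher after RLE. After RLE, fibroblast and pericyte markers summed to 39.1 to 65.7 CPM in BAFF tumour libraries and to 48.9 to 233 CPM in controls. The deposited-scale sums were 41.9 to 70.2 and 40.01 to 295 CPM, and control library 1 was the highest on both scales. Col1a1 passed as lower after RLE, 0 of 9 passed on the deposited scale, and Col3a1 was the most abundant. Of the dendritic cell markers 2 of 7 passed as higher on both scales (Cd209a, the most abundant, and Flt3). The lymphocyte marker Igkc, the most abundant of its list, passed as lower on both scales and the other 3 tested did not pass, and the single keratinocyte marker found, Krt10, was at most 0.22 CPM.

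F10, Plaur and Thbd were the members whose rise passed on both scales, each with no overlap between groups. On the deposited scale 3 of the 9 members passed as higher and 0 as lower, where 1.81% of all tested genes passed as higher and 3.5% as lower. After RLE 4 of 9 passed as higher, F3 being added, and 2 of 9 as lower, Plau and Tfpi, where 7.18% of all tested genes were higher and 9.91% lower. The median log2 fold change of the 9 was 0.55 on the deposited scale and 0.31 after RLE, beside the 0.23 and 0.01 of all tested genes. F7, F13a1 and Serpinb2 passed on neither scale. On the deposited scale the groups did not overlap for 4 of the 9, all higher in BAFF tumours, beside 11.4% of all tested genes higher and 6.6% lower without overlap (18% in either direction). After RLE they did not overlap for 6 of 9, 4 higher and 2 lower, beside 17.3% and 17.8% (35.2% in either direction).

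**Figure D1:**
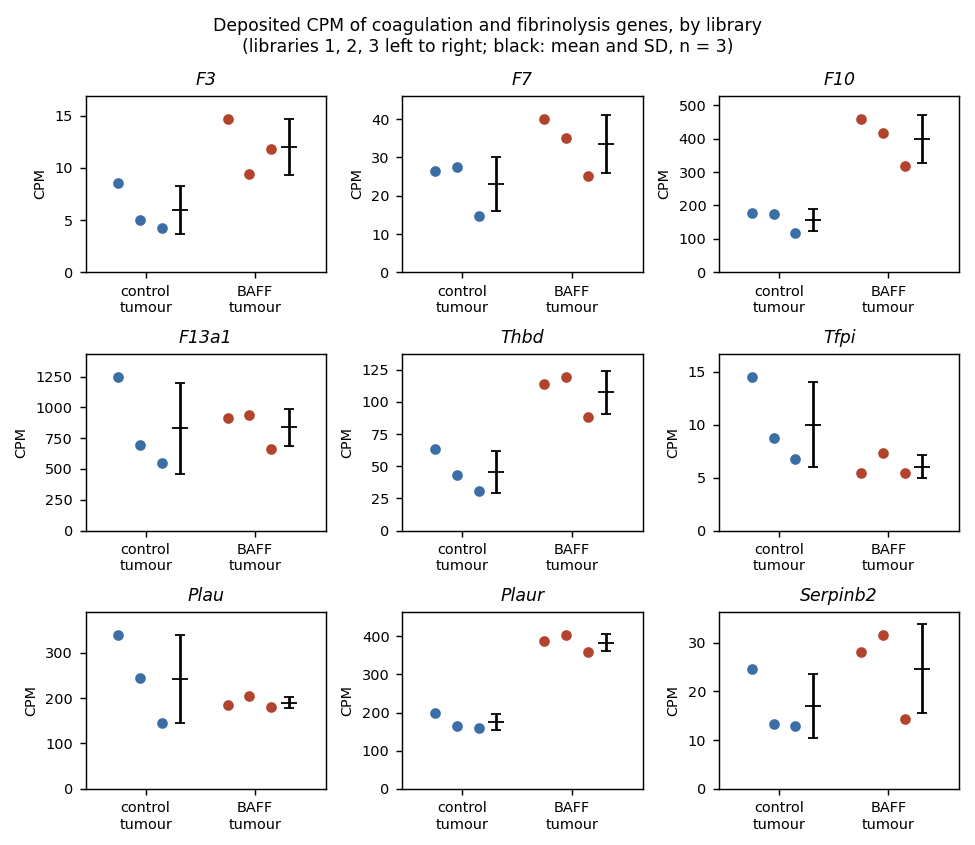
Deposited CPM of the 9 genes in each library, with libraries 1, 2 and 3 from left to right in each group and the mean and SD (n = 3) in black; every vertical axis starts at 0. The 3 BAFF tumour libraries lie above all 3 control libraries for F3, F10, Thbd and Plaur, and the groups overlap for the other 5 genes.

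Tissue factor, the trigger of clotting, was scarce. F3 stood at 14.7, 9.39 and 11.8 CPM in BAFF tumour libraries 1, 2 and 3 and at 8.60, 5.06 and 4.23 CPM in control libraries 1, 2 and 3. Every BAFF tumour value lay above every control value, though BAFF tumour library 2 was only just above control library 1. The means were 11.98 ± 2.67 and 5.96 ± 2.32 CPM (SD, n = 3). The log2 fold change of 0.93 ± 0.31 (SE) missed the threshold on the deposited scale (limma adjusted p = 0.0556). It passed there with a pseudocount of 0.1 (1.04, adjusted p = 0.0479) or without the intensity trend (adjusted p = 0.0427). It missed there with no filter (adjusted p = 0.0846), a minimum mean of 5 CPM (0.0789) or a replicate block (0.0727). It passed after RLE (0.71 ± 0.18, adjusted p = 0.0187). After RLE the controls drew together, at 6.79, 5.59 and 6.32 CPM, below the 13.8, 8.23 and 11.1 CPM of the BAFF tumour libraries. Control library 3 held about 20 reads of F3, a counting error of 22.4%. The RLE call was lost without BAFF tumour library 1 or 3 or control library 2 (adjusted p at most 0.08698), and the deposited scale gave a call without control library 1 or 3.

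Factor VII, the partner of tissue factor, did not pass. F7 stood at 40.1, 35.01 and 25.3 CPM in BAFF tumour libraries and 26.5, 27.5 and 14.8 CPM in controls, so that BAFF tumour library 3 fell within the control range. The log2 fold change was 0.55 ± 0.32 (limma adjusted p = 0.392) and 0.31 ± 0.18 after RLE (adjusted p = 0.268), with a 95% interval of -0.08 to 0.69 after RLE. On the deposited scale F7 passed only in the fit without control library 1 (adjusted p = 0.0141). That fit called 5192 of the 12824 tested genes, 4615 of them as higher.

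Factor X, which cleaves prothrombin, gave the largest rise of the 9. F10 stood at 459.6, 418 and 319 CPM in BAFF tumour libraries and 177, 173 and 119 CPM in controls. The lowest BAFF tumour library was well above the highest control. Means were 399 ± 72.3 and 156 ± 32.5 CPM (SD, n = 3), and the log2 fold change was 1.35 ± 0.32 (SE; limma adjusted p = 0.00172) and 1.10 ± 0.15 after RLE (adjusted p = 0.000471). It passed in all 6 RLE fits that left out 1 library (adjusted p at most 0.00445), and on the deposited scale it was lost without BAFF tumour library 1 or 2 (adjusted p at most 0.114). Ly6C-high monocyte markers were higher in the same libraries, and their part in the F10 result was not tested.

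F10 and F7 are next to each other in the RefSeq gene order, between Mcf2l and Proz. Of the 6 genes from Atp11a to Pcid2, 4 were higher in every BAFF tumour library than in any control library on the deposited scale. These were Mcf2l, F10, Proz and Pcid2, while Atp11a and F7 overlapped. On that scale 11.4% of all tested genes were higher without overlap, Proz not being among the tested. Whether the region rose as a whole was not tested. Mcf2l, a guanine nucleotide exchange factor gene on the F7 side, rose from 9.81 ± 2.48 to 21.1 ± 0.78 CPM (log2 1.06 ± 0.32, limma adjusted p = 0.0209; 0.82 ± 0.18 after RLE, adjusted p = 0.00766). Proz, protein Z, a cofactor of factor X inhibition on the F10 side, was under the test's minimum at 0.829, 1.41 and 1.88 CPM in BAFF tumour libraries and 0.22, 0.281 and 0.423 CPM in controls, the latter at or under the 3-read floor in libraries 2 and 3. Pcid2, beyond Proz, passed on neither scale (log2 0.34 ± 0.11 after RLE, adjusted p = 0.0626), nor did Atp11a, beyond Mcf2l (0.11 ± 0.11, adjusted p = 0.546). Within each library, the log2 ratio of F7 to F10 was -3.49, -3.54 and -3.61 in BAFF tumours and -2.69, -2.61 and -2.92 in controls (of CPM + 1, so that library scale enters only through the added 1). The groups did not overlap, with a difference of -0.80 (two-sided exact permutation p = 0.1, the smallest 3 against 3 allows; 0.133 adjusted over the 4 ratios tested).

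**Figure D2:**
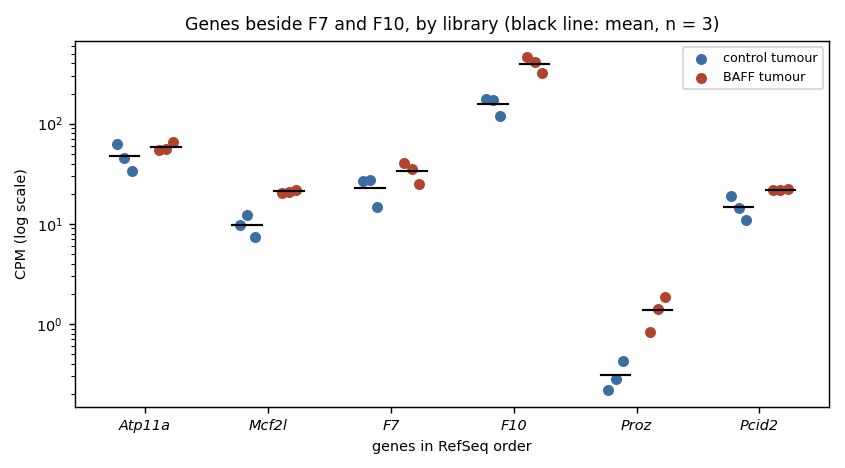
Deposited CPM (log axis) of F7, F10 and the 2 listed genes to each side in RefSeq order, by library, with the group mean (n = 3) as a black line. Mcf2l, F10, Proz and Pcid2 are higher in all 3 BAFF tumour libraries than in any control library, while Atp11a and F7 overlap between groups.

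F13a1, the fibrin cross-linking transglutaminase, was the most abundant of the 9 in CPM and gave no call. It stood at 915, 937 and 662 CPM in BAFF tumour libraries and 1248, 691 and 550.1 CPM in controls. The BAFF tumour values lay inside the control range. Its log2 fold change was 0.09 ± 0.33 on the deposited scale and -0.17 ± 0.15 after RLE (limma adjusted p = 0.907 and 0.487; 95% interval -0.49 to 0.15 after RLE), a sign that turns with the scale.

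Thrombomodulin, the thrombin receptor that starts the protein C anticoagulant pathway, rose beside the procoagulant factor X. Thbd stood at 114, 119 and 88.5 CPM in BAFF tumour libraries and at 63.0, 43.1 and 30.9 CPM in controls. No control library reached the lowest BAFF tumour library. Means were 107 ± 16.5 and 45.7 ± 16.2 CPM (SD, n = 3), and the log2 fold change was 1.26 ± 0.32 (limma adjusted p = 0.00365) and 1.01 ± 0.11 after RLE (adjusted p = 0.000151). After RLE the 3 controls lay between 46.1 and 49.7 CPM and the BAFF tumour libraries between 82.9 and 106.7 CPM. The call held in all 6 RLE fits without 1 library (adjusted p at most 0.00179) and on the deposited scale was lost without BAFF tumour library 1, 2 or 3 or control library 2 (adjusted p at most 0.155). Thbd is also a gene of endothelium, whose defining markers Cdh5 and Tie1 had means under 2 CPM in both groups, while Kdr of the same list was higher in the BAFF tumour libraries, as Thbd was (0.65 ± 0.15 after RLE, adjusted p = 0.0103). The part of endothelial RNA in the Thbd result was not tested. Cd93, the listed gene next to Thbd, passed on neither scale (0.13 ± 0.11 after RLE, adjusted p = 0.487).

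Tfpi, the inhibitor of the tissue factor and factor VII complex, moved the other way from tissue factor. It stood at 5.39, 7.29 and 5.43 CPM in BAFF tumour libraries and 14.5, 8.71 and 6.77 CPM in controls. On this scale BAFF tumour library 2 lay above control library 3. After RLE the BAFF tumour libraries held 5.04, 6.38 and 5.09 CPM and the controls 11.5, 9.63 and 10.1 CPM, without overlap. The log2 fold change was -0.59 ± 0.31 (limma adjusted p = 0.332) and -0.81 ± 0.15 after RLE (adjusted p = 0.00359), and the RLE call held in all 6 fits without 1 library (adjusted p at most 0.0167). On the deposited scale it passed without control library 3 (adjusted p = 0.0242), where 1171 of the 12824 tested genes were called, 922 of them as lower. Control library 3 held about 32 reads of it. Melanoma cell and resident-type macrophage markers were lower in the same libraries, and their part in this result was not tested.

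Set against each other within a library, the initiator and its inhibitor separated the groups. The log2 ratio of F3 to Tfpi was 1.30, 0.33 and 0.999 in BAFF tumour libraries and -0.69, -0.68 and -0.57 in controls. F3 thus exceeded Tfpi in CPM in every BAFF tumour library and in 0 of the 3 control libraries, which compares libraries and not the levels of the genes. The difference of 1.52 (1.698 with a pseudocount of 0.1) had a two-sided exact permutation p of 0.1, the smallest possible (0.133 adjusted over the 4 ratios).

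The urokinase receptor rose while urokinase did not. Plaur stood at 388, 403 and 359.5 CPM in BAFF tumour libraries and 199.9, 165 and 159.8 CPM in controls, 2 groups tight and separate on the deposited scale. Means were 384 ± 22.3 and 175 ± 21.8 CPM (SD, n = 3), and the log2 fold change was 1.13 ± 0.32 (limma adjusted p = 0.0135) and 0.88 ± 0.14 after RLE (adjusted p = 0.00108). After RLE the BAFF tumour libraries held 363, 354 and 337 CPM. The controls, at 158, 182 and 239 CPM, spread wider there (SD 41.4) and still did not overlap them. All 6 RLE fits without 1 library kept the call (adjusted p at most 0.00775), and on the deposited scale it was lost without BAFF tumour library 1, 2 or 3 or control library 2 (adjusted p at most 0.237). Ly6C-high monocyte markers and some neutrophil markers, of cells that also carry this receptor, were higher in the same libraries, and their part was not tested.

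Plau, the urokinase gene, stood at 185, 204 and 181 CPM in BAFF tumour libraries and 339, 244 and 144 CPM in controls. The controls spread on both sides of the BAFF tumour libraries. The deposited-scale log2 fold change was -0.27 ± 0.32 (limma adjusted p = 0.691). After RLE the BAFF tumour libraries held 173, 179 and 169.7 CPM and the controls 268, 270.2 and 215 CPM, and Plau fell (-0.52 ± 0.11, adjusted p = 0.00636), also in all 6 RLE fits without 1 library (adjusted p at most 0.0288). Fibroblast markers were highest in control library 1, where Plau was highest too on the deposited scale. Without that library the RLE value was -0.47 (adjusted p = 0.02397) and the deposited value 0.02 (adjusted p = 0.96). The log2 ratio of Plau to Plaur was -1.06, -0.98 and -0.99 in BAFF tumour libraries and 0.76, 0.56 and -0.15 in controls, a difference of -1.40 without overlap (two-sided exact permutation p = 0.1, the smallest possible).

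Serpinb2, the intracellular and secreted inhibitor of urokinase also called plasminogen activator inhibitor 2, did not pass. It stood at 28.1, 31.6 and 14.3 CPM in BAFF tumour libraries and 24.7, 13.3 and 12.9 CPM in controls, so that BAFF tumour library 3 sat with the lower controls. The log2 fold change was 0.50 ± 0.32 (limma adjusted p = 0.443) and 0.26 ± 0.23 after RLE (adjusted p = 0.481; 95% interval -0.23 to 0.76). Without BAFF tumour library 3 the RLE value was 0.58 (adjusted p = 0.0258), and without control library 1 the deposited scale gave a call (adjusted p = 0.00465). The latter fit called 5192 of the 12824 tested genes, 4615 of them as higher. In GENCODE M21 its exons share 291 bases with those of the neighbouring Serpinb10, 12.4% of their length, so some reads of the pair are uncertain. The log2 ratio of Plau to Serpinb2 averaged 2.97 ± 0.52 and 3.74 ± 0.36 (SD, n = 3), and the groups overlapped (two-sided exact permutation p = 0.2).

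**Figure D3:**
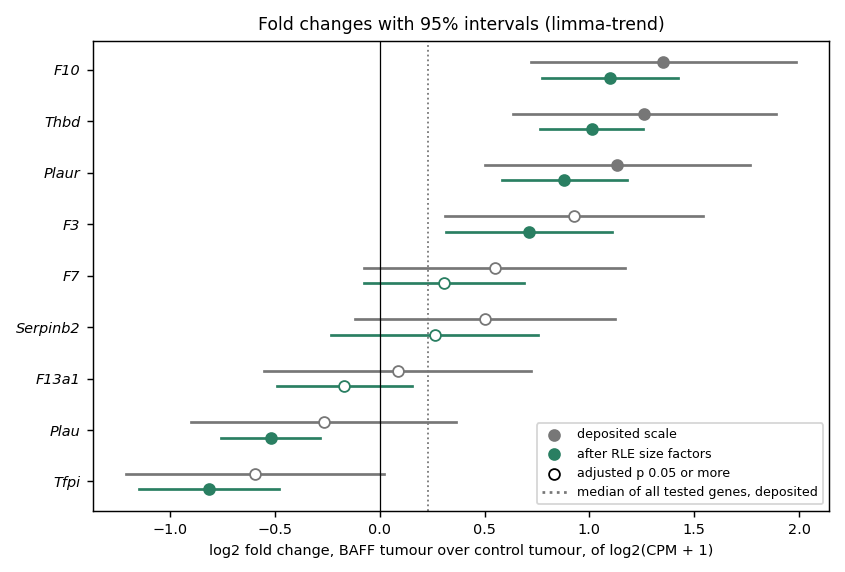
Log2 fold changes of the 9 genes with 95% intervals from limma-trend, on the deposited scale (grey) and after RLE size factors (green); filled points have an adjusted p under 0.05 and the dotted line is the median of all tested genes on the deposited scale. F10, Thbd and Plaur are filled on both scales, F3, Plau and Tfpi after RLE, and F13a1 changes sign between scales.

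**Figure D4:**
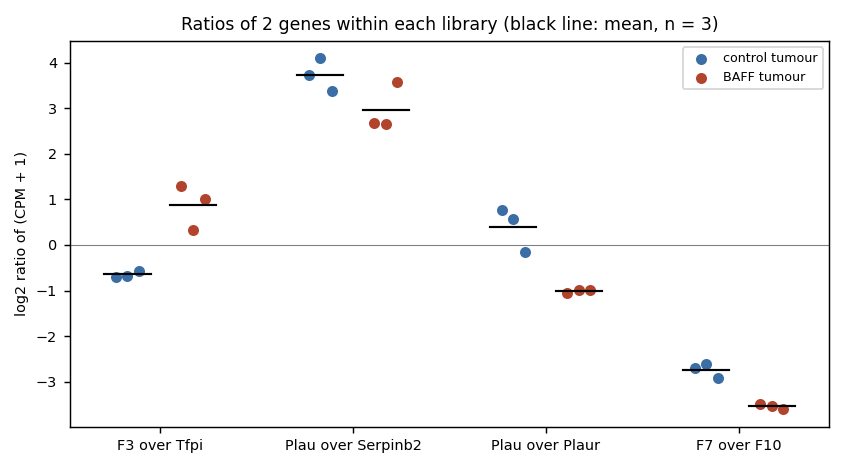
Log2 ratios of (CPM + 1) of 4 pairs of genes within each library, where library scale enters only through the added 1, with the group mean (n = 3) as a black line. The groups separate for F3 over Tfpi, Plau over Plaur and F7 over F10, and overlap for Plau over Serpinb2.

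Per kilobase of exon (GENCODE M21 exon lengths), the order of the 9 genes differed between groups at the top and not at the bottom. In BAFF tumour libraries Plaur, at 147 ± 8.52 CPM per kb, and F10, at 146 ± 26.5, took the first 2 ranks in all 3 libraries and did not differ beyond their spread. F13a1 held rank 3 in each (124 ± 22.7, within the spread of F10) and Plau rank 4 (80.3 ± 5.14). In control libraries F13a1 (123 ± 54.8) and Plau (103 ± 41.2) held the 2 highest means, with Plaur (66.8 ± 8.33) and F10 (57.2 ± 11.9) behind them, and these 4 overlapped in part. Thbd was next at 28.8 ± 4.43 CPM per kb in BAFF tumours, above F7 at 18.0 ± 4.06, while in controls both stood at 12.3 (SD 4.35 and 3.80). Serpinb2 followed (10.5 ± 3.89 and 7.23 ± 2.83), with F3 (4.74 ± 1.06 and 2.36 ± 0.92) and Tfpi (1.10 ± 0.20 and 1.83 ± 0.74) at ranks 8 and 9 in all 6 libraries. The order compares levels, and no test was made on it.

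Most other genes of the pathway did not pass. Of 63 genes on 6 lists of other coagulation and fibrinolysis genes 46 were found and 37 tested. On the deposited scale 3 rose, 1 fell and 33 did not pass, and after RLE 6 rose, 2 fell and 29 did not pass. Their median log2 fold change was 0.40 and 0.18 after RLE. Tgfbi, a matrix protein that stands on the inhibitor list, counts among the rises on both scales and in these medians. Among all tested genes 5.31% passed on the deposited scale and 17.1% after RLE.

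Among coagulation factors and the enzymes that process them, F5, the factor V cofactor with which factor X makes thrombin, was the call on both scales. It stood at 15.9, 18.7 and 16.7 CPM in BAFF tumour libraries and 8.63, 9.55 and 4.45 CPM in controls, with no overlap (log2 1.14 ± 0.32, limma adjusted p = 0.0105; 0.91 ± 0.17 after RLE, adjusted p = 0.00339). Vkorc1, which recycles the vitamin K needed to complete factors VII and X, passed as lower after RLE (-0.67 ± 0.19, adjusted p = 0.0308). On the deposited scale it did not pass (-0.50 ± 0.31, limma adjusted p = 0.420). There it was at 4.03 ± 1.78 CPM in controls and 2.39 ± 0.19 CPM in BAFF tumour libraries, and control library 3, at 2.12 CPM, lay below every BAFF tumour library. The other 6 tested genes of this list passed on neither scale.

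Of the genes of procoagulant surfaces, Plscr1, a phospholipid scramblase family gene that is also induced by interferon, rose from 8.59 ± 4.07 to 17.8 ± 3.35 CPM (log2 1.05 ± 0.32, limma adjusted p = 0.0230; adjusted p = 0.00636 after RLE), and the other 6 tested did not pass. Of 4 tested anticoagulant genes Entpd1 (CD39), an ectonucleotidase that removes platelet-activating ADP, passed as higher after RLE (0.44 ± 0.10, adjusted p = 0.00816) and 0 passed on the deposited scale. The thrombin receptor F2r was the only protease-activated receptor gene tested and did not pass (0.21 after RLE). Of 8 plasminogen receptor and clearance genes Itgb2, the beta chain of Mac-1, passed as higher after RLE (0.50 ± 0.11, adjusted p = 0.009996) and 0 passed on the deposited scale.

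The inhibitor list held calls in both directions. Serpinb6a, an intracellular serpin with close paralogs that may share its reads, fell from 59.5 ± 32.2 to 19.4 ± 1.40 CPM (log2 -1.44 ± 0.32, limma adjusted p = 0.00053; -1.69 ± 0.15 after RLE). Serpinb10, beside Serpinb2, was at 12.3 ± 2.30 and 6.23 ± 2.76 CPM and passed as higher after RLE (0.71 ± 0.19, adjusted p = 0.0260; deposited adjusted p = 0.0535). Tgfbi, a matrix protein that stands on this list without being a protease inhibitor, rose from 590.3 ± 120 to 1331 ± 101 CPM (1.19 ± 0.33, limma adjusted p = 0.00903).

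**Figure D5:**
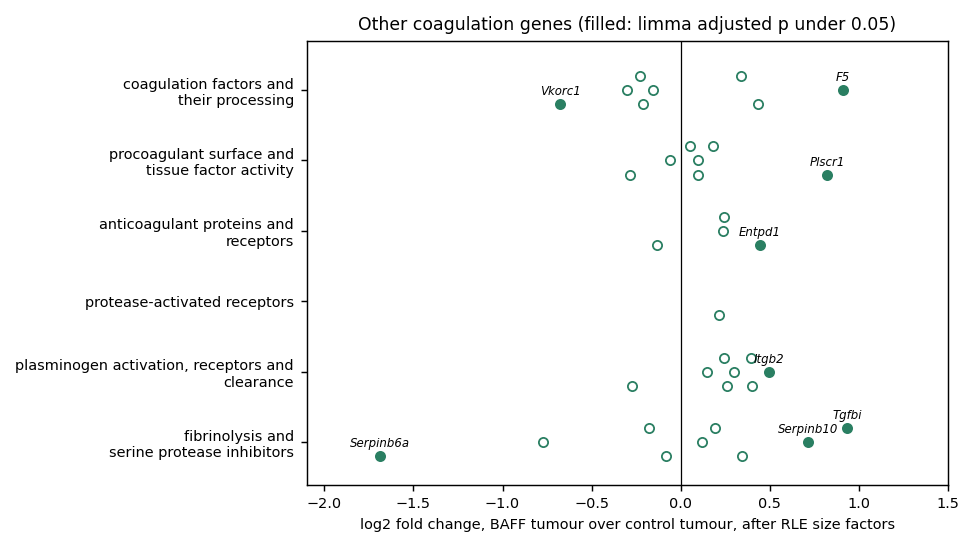
Log2 fold changes after RLE size factors of the 37 tested genes of the 6 other coagulation and fibrinolysis lists, 1 row a list, each point 1 gene; filled and named points have a limma adjusted p under 0.05. The 6 higher calls, with the matrix protein gene Tgfbi among them, and the 2 lower calls stand among 29 genes that did not pass.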

How the data were processed

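Monocyte RNA from 3 BAFF tumours' and 3 control tumours' libraries was read out with an unstranded kit (TruSeq v2) on Illumina HiSeq, per the labels' protocols. Bowtie2 (2.2.5), STAR (2.4.1d) and Partek appear in the submitters' processing notes, with no step assigned to any of them. Build, annotation and counting rule: not given in the sources used here. The deposited values were taken as CPM. Within a library 85.1% to 86.4% of low values lie within 0.02 of whole multiples of 1 step, as scaled read counts do. The fits used the scaled values and no count model. A column name lacking a letter was matched to control library 2.

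Tests were limma-trend (limma 3.58.1, R 4.3.3) on log2(CPM + 1) over 12824 genes whose mean reached 1 CPM, two-sided, called at a Benjamini-Hochberg adjusted p under 0.05. RLE factors were computed on the tested genes. No 2 libraries of a group were alike within sampling noise (chi-square per degree of freedom at least 7.29). The members, lists, tests and alternatives were chosen with earlier results of these data known, and the motifs after the values were seen. Named genes were the 9 members, listed genes that were called (at most 4 a pathway list, otherwise its most abundant gene), the most abundant and up to 2 called genes of each marker list, the 2 genes most correlated with each member called on both scales, and up to 2 listed genes on either side of a member. The marker lists covered monocyte and macrophage identity, Ly6C-high monocytes, resident-type macrophages, platelets, endothelium, fibroblasts, melanoma cells, neutrophils, lymphocytes, keratinocytes and dendritic cells. Read numbers and the 3-read floor cover counting error only. The 95% intervals come from limma's standard errors, which rest on the spread between libraries. On the deposited scale that spread is pooled over genes of like level and is not the gene's own. Some listed genes are not reported here.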

Additional observations from a re-analysis of the deposited data

How the results depend on the processing

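The alternatives changed how many genes passed more than the direction of the members. From 681 genes, 3 members and 4 other pathway genes called on the deposited scale, the counts became 2192, 6 and 8 with RLE, 2080, 6 and 8 with upper-quartile factors and 2169, 6 and 8 with trimmed mean of M values factors. A minimum mean of 5 CPM left 316 genes called. A pseudocount of 0.1, or no intensity trend, added F3 to the members called on the deposited scale, which made 4. With no filter or a minimum mean of 5 CPM the members called stayed at 3, without F3. In 2 alternatives chosen after seeing the data, control library 1 as the only control gave 1861, 5 and 7 (1122, 5 and 7 with RLE), the lone control being assumed to vary like the BAFF tumour libraries, and scaling listed genes without CT010467.1 to 1 total gave 2183, 6 and 6. Leaving out 1 library at a time, over both scales, gave 167 to 5192 genes, 0 to 6 members and 0 to 25 other pathway genes. Without rescaling, 0 members were called without BAFF tumour library 1 and also without library 2, where 258 and 218 of all 12824 tested genes passed. The 5192 genes came without control library 1, 4615 of them as higher. The log2 fold change of F13a1 turned to -0.17 with RLE (the same with the replicate block added), -0.22 with upper-quartile factors, -0.17 with trimmed mean factors, -0.30 with the CT010467.1 scaling, and -0.59 (deposited) and -0.39 (RLE) against control library 1 alone, and ran from -0.26 to 0.42 over fits without 1 library. Plau ran from -0.63 to 0.016 over those fits, positive on the deposited scale without control library 1, and Serpinb2 was -0.072 against control library 1 alone. The cause of these moves was not tested.

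A replicate block on the library numbers gave 608 genes, 3 members and 4 other pathway genes, and with RLE 1940, 6 and 8. Same-numbered libraries did not deviate together (r = -0.06, 0.06 and -0.04), so the numbers are not known to pair the samples. Under the block the within-library ratios had an exact paired test, for which 0.25 is the smallest p that 3 pairs allow. Its p was 0.25 for F3 over Tfpi, Plau over Plaur and F7 over F10, and 0.5 for Plau over Serpinb2. A p of 0.25 here therefore cannot decide whether a separation weakens under pairing. Depth limits F3 and Tfpi most, with 20 and 32 reads in the shallowest library.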

Other observations

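The genes whose pattern over the 6 libraries was most like that of a member called on both scales were found by Pearson's correlation of log2(CPM + 1) after RLE among 9095 other genes whose mean reached 5 CPM. All points share the group difference, so the correlations are a description. Prdx6, a peroxiredoxin gene (r = 0.999), and Snx18, a sorting nexin gene (0.997), were most like F10. H13, a signal peptide peptidase gene (0.994), and Shisa5 (0.9904) were most like Plaur. Gpalpp1 (0.999) and Taf7, a subunit gene of the TFIID complex (0.996), were most like Thbd. Of these 6 genes, Prdx6 passed on the deposited scale (log2 1.00, limma adjusted p = 0.0402) and the others did not pass on that scale. Their test results after RLE, the scale of the correlation, are not given here.

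Of 32 listed genes within 2 places of a member in RefSeq order, 22 were tested. On the deposited scale 1, Mcf2l, passed, beside 5.31% of all tested genes. After RLE 2 passed as higher, Mcf2l and Serpinb10, beside 7.18% of all tested genes. As lower 2 passed, Vcl beside Plau (limma adjusted p = 0.0485) and Ctnnd1 near Tfpi (adjusted p = 0.0146), beside 9.91% of all tested genes. In either direction 17.1% of all tested genes passed after RLE.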
